A study of Mus musculus with 2 samples.

Results

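Genes of DEAD and DEAH box helicases were identified by symbols that begin with Ddx or Dhx. These symbols do not cover every such helicase, since D1Pas1, of the Ddx3 family, lies outside them. All protein-coding genes with such a symbol in the RefSeq annotation of GRCm38.p6 (mm10) were taken, which gave 53 of 21480 genes with a placed 5′ end. There were 37 Ddx genes and 16 Dhx genes. CHD2, a chromatin remodeller with a helicase domain of its own, had been precipitated from ES-E14, a mouse embryonic stem cell line from a male embryo of strain 129/Ola. There was 1 group of 2 biological replicates, with no treatment, no second genotype and no time course, so no comparison between conditions was possible. Whether the replicates came from separate cultures was not stated beyond the label "biological". The peak lists were an optimal list drawn from both replicates, a somewhat shorter conservative list of 7530 peaks, and relaxed lists of 300000 peaks for each replicate and for their pool.

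DEAD and DEAH box proteins use ATP to unwind short RNA duplexes or to strip proteins from RNA. They drive the remodelling steps of the spliceosome, the maturation of ribosomal RNA, nuclear export, translation initiation and mRNA decay. Most are needed in every dividing cell. A few are restricted to the germ line, where they act with small RNAs or on stored messages, and others sense viral RNA and are induced by interferon. No file measured RNA, so these classes came from general knowledge, and neither the identity of the cells nor the expression of any member was checked here.

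A gene was called occupied when a peak summit lay within 1 kb of its 5′ end, taken as the outer end of the RefSeq gene. Each gene was scored by the strongest such summit. The strength of a summit is the signal that the authors deposited with each peak, in no stated unit, and values were compared only within a list. Each replicate was read from its own relaxed list, and as many of its strongest peaks as the optimal list holds served as its top list. The top lists ended at a signal of 11.1 in replicate 1 and 11.6 in replicate 2. Read depth is unknown for all lists, and no error from it is attached to any signal.

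RefSeq promoter sequences of 300 bp, reaching from 250 bp before the start to 50 bp after it, were matched to 47 of the 53 members by gene ID. The promoters of 4 members are printed as examples. The first is the promoter of the member with the highest signal. The second belongs to the strongest member whose summit fell inside this window. The last 2 belong to germline members, Ddx43 with and Ddx4 without a peak near the start in the conservative list. All run 5′ to 3′ on the strand of the gene, and capitals mark matches to the short motifs described with the promoter features.
Ddx20, chr3:105687522-105687821, minus strand: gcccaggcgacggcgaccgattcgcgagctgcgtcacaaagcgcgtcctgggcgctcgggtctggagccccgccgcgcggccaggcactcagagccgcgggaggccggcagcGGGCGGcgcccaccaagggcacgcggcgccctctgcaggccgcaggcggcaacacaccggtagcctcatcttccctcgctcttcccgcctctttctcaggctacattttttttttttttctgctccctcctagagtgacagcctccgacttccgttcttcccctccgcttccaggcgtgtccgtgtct
Dhx9, chr1:153487611-153487910, minus strand: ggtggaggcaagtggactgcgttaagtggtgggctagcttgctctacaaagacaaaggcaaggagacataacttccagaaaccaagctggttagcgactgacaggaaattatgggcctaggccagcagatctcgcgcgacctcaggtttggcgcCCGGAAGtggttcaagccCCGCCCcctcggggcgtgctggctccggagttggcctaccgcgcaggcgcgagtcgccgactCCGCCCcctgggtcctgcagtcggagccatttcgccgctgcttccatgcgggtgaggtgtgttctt
Ddx43, chr9:78395527-78395826, plus strand: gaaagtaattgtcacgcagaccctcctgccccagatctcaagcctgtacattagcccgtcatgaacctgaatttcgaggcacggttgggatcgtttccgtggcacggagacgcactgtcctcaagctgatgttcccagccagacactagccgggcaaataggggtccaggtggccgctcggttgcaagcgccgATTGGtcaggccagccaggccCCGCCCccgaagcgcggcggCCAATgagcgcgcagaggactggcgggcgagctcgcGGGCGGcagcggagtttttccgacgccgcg
Ddx4, chr13:112652261-112652560, minus strand: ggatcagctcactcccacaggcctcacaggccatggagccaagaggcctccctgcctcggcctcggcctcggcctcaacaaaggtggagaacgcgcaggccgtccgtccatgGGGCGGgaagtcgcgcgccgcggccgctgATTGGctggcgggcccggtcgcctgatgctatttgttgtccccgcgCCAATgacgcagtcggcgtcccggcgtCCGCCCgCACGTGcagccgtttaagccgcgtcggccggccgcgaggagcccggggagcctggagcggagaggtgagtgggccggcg
The Ddx20 peak overlapped only the 3′ part of its window, and its summit lay 96 bp past the start of the promoter table. The Dhx9 summit lay 139 bp before the start. In Ddx43 the summit of the conservative list fell inside the window. Ddx4 had no peak here in the optimal or the conservative list.

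CHD2 occupied the 5′ ends of 12 of the 53 members in the optimal list, a share of 22.6% (exact Clopper-Pearson 95% interval 12.3 to 36.2, counting error over genes only). Over all 21480 genes the share was 14.1%, which lies inside that interval. Replicate 1 alone gave 12 members, against 14.6% of all genes. Replicate 2 alone gave 13 members, against 14.2% of all genes. In both replicates at once, 7 members were occupied (13.2%), beside 10.5% of all genes. The members thus stood above the background in every list by count, but the interval of the optimal share includes it.

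The replicates shared only some of their members. Among the 18 members occupied in at least 1 of the optimal list and the replicate lists, 7 were in all 3 lists (38.9%). For all genes the corresponding number was 2170 of 4064 (53.4%). The 7 members were Ddx20, Ddx3x, Ddx39a, Dhx57, Dhx9, Dhx33 and Ddx39b. Of the others, 5 had an optimal peak and were missing from 1 replicate list, and 6 had no optimal peak but appeared in 1 replicate list only. The plot of ranks by member shows this split.

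**Figure D1:**
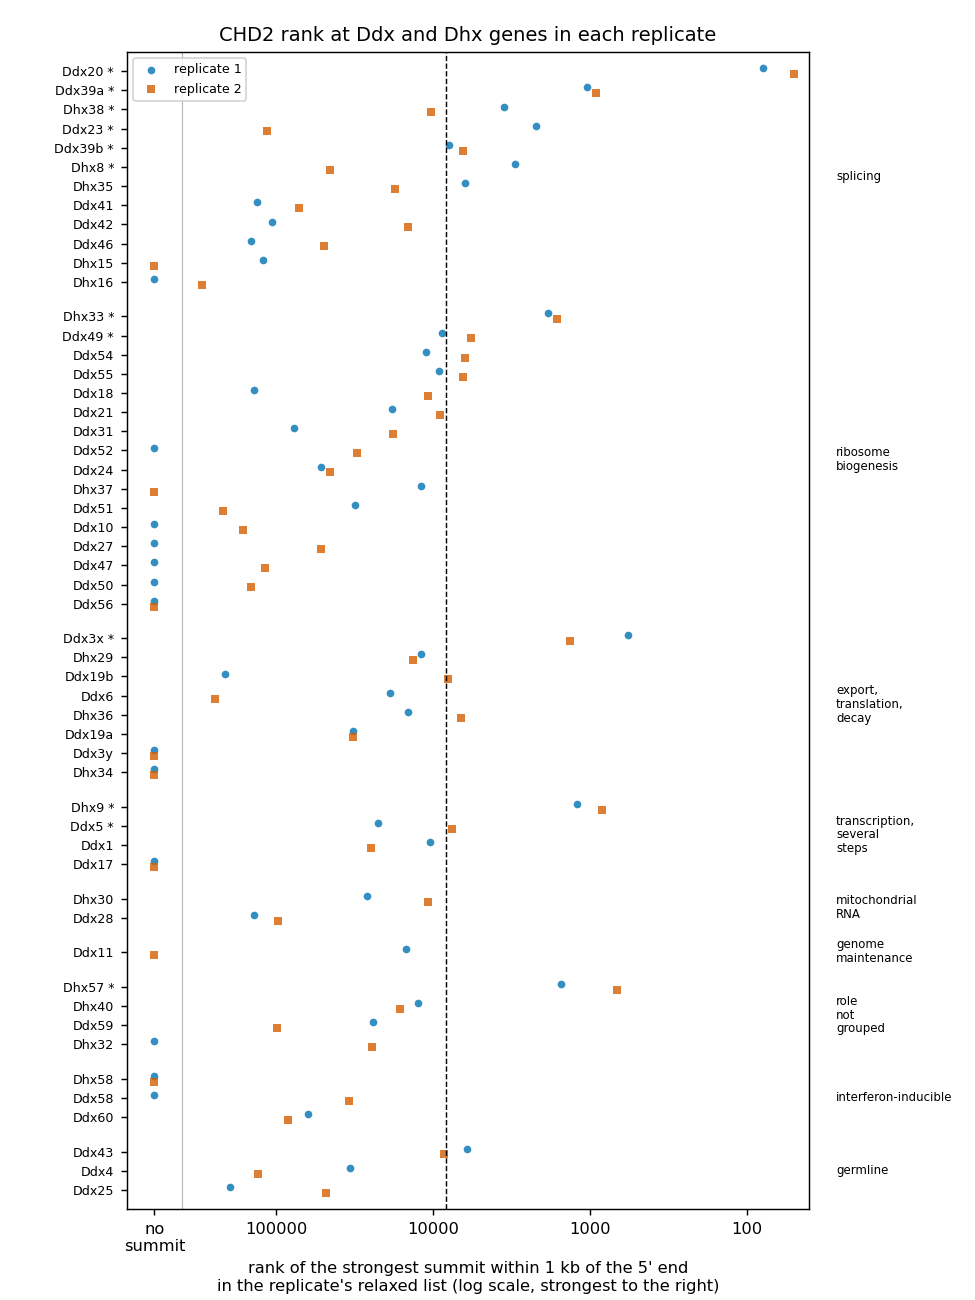
Rank of the strongest summit within 1 kb of the 5′ end of all 53 members by role, in the relaxed list of each replicate (log scale, strongest to the right; circles replicate 1, squares replicate 2, left column for no summit), with an asterisk for members with an optimal peak. The dashed line marks the length of the optimal list, at which the top lists end. Ddx20, Ddx39a, Dhx33 and Dhx9 have close ranks in both replicates, while Ddx23 lies far apart at 2199 and 114592.

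Helicases of the spliceosome and of snRNP assembly formed the group with the most occupied members in the optimal list, though not in replicate 2. In the optimal list 6 of these 12 genes were occupied, against 14.1% of all genes. In replicate 1 the number was 7, against 14.6%, and in replicate 2 it was 3, against 14.2%. The strongest was Ddx20, which encodes Gemin3, a subunit of the SMN complex that builds spliceosomal snRNPs. Its peak at chr3:105687337-105687632 had an optimal signal of 328 and ranked at 56 of the optimal list. Its signal was 165 in replicate 1 (rank 79) and 162 in replicate 2 (rank 50). The summit lay 313 bp inside the gene and moved by 1 bp between the replicates. No other member came near this level, the next being Ddx3x at 100.5.

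Ddx39a and Ddx39b encode close relatives that load export factors on mRNA, and Ddx39b also acts in early spliceosome assembly. The Ddx39a peak at chr8:83715126-83715249 had a signal of 89.1 (rank 925), with 41.3 in replicate 1 (rank 1050) and 46.4 in replicate 2 (rank 915). Its summit lay 37 bp inside the gene. The Ddx39b peak at chr17:35240990-35241349 was weaker, with a signal of 26.2 (rank 4911), 11.4 in replicate 1 (rank 7938) and 13.1 in replicate 2 (rank 6434). At 576 bp upstream, the Ddx39b summit was the farthest from its 5′ end among the 12. Both paralogues were thus in all 3 lists, far apart in rank.

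Ddx23, Dhx8 and Dhx38, whose proteins remodel the spliceosome at successive steps, differed between replicates. Dhx38 encodes PRP16, which remodels the spliceosome before exon ligation. Its peak at chr8:109565793-109566152 had a signal of 30.9 (rank 3892), with 17.7 in replicate 1 (rank 3544) and 10.4 in replicate 2 (rank 10296). Ddx23 encodes PRP28, which exchanges U1 for U6 at the 5′ splice site. Its peak at chr15:98662795-98663154 had a signal of 27.9 (rank 4532), with 24.2 in replicate 1 (rank 2199) but 4.21 in replicate 2 (rank 114592). The replicate 2 summit at Ddx23 lay 174 bp inside the gene, while the optimal one lay 47 bp upstream. Dhx8 encodes PRP22, which releases the spliced mRNA. Its peak at chr11:101732788-101733147 had a signal of 25.1 (rank 5207), with 19.8 in replicate 1 (rank 2998) and 5.78 in replicate 2 (rank 45681). All 3 genes were called in replicate 1 and missed in replicate 2.

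Dhx35, found in the catalytically active spliceosome, was called in replicate 1 only, with a signal of 12.8 (rank 6236) against 8.27 in replicate 2 (rank 17596). The remaining 5 genes of the group had no call in any of the 3 lists. Ddx41, Ddx42, Ddx46 and Dhx15 had pooled signals of 12.8, 12.1, 9.04 and 8.57, below the value of 20.2 at which a pooled top list of the same length ended. Dhx16, which encodes PRP2, had no pooled summit within 1 kb. Occupancy therefore did not extend over all of the PRP family helicases in any list.

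Helicases of ribosome biogenesis made up the largest group, with a share of occupied genes near that of all genes in the optimal list. In that list 2 of 16 were occupied (12.5%, all genes 14.1%). In replicate 1 it was 1 (all genes 14.6%) and in replicate 2 it was 4 (all genes 14.2%). Dhx33, which promotes transcription of ribosomal RNA genes, was the strongest. Its peak at chr11:71004419-71004778 had a signal of 56.9 (rank 1656), with 26.9 in replicate 1 (rank 1865) and 30.0 in replicate 2 (rank 1632). The peak of Ddx49 at chr8:70302345-70302704 had a signal of 24.8 (rank 5308). Its replicate 1 signal of 10.9 (rank 8732) fell just outside the top list, while that of 13.96 in replicate 2 (rank 5703) was inside. Dhx33 alone of the 16 was called in both replicates.

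Ddx54 and Ddx55, which act on the precursor of the large ribosomal subunit, were called in replicate 2 only. Ddx54 had signals of 9.88 in replicate 1 (rank 11086) and 13.3 in replicate 2 (rank 6308). Ddx55 had 10.6 in replicate 1 (rank 9206) and 13.2 in replicate 2 (rank 6420). For Ddx55 the replicate summits lay 285 bp upstream and 23 bp inside the gene, so they did not mark 1 position. Ddx18 and the nucleolar helicase Ddx21 stood close to the pooled limit of 20.2, Ddx18 above it at 20.5 and Ddx21 below it at 19.9. Ddx18 had 4.80 in replicate 1 (rank 137988), 851 bp inside the gene. In replicate 2 it had 10.2 (rank 10737), 35 bp upstream, so both were outside the top lists. The pooled signals of Ddx10, Ddx24, Ddx31, Ddx51, Ddx52 and Dhx37 ran from 7.42 to 14.7. Ddx27, Ddx47, Ddx50 and Ddx56 had no pooled summit within 1 kb. For Ddx50 and Ddx56 the start in the promoter table lay over 1 kb inside the gene, outside the window that was read.

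Among the 8 helicases of export, translation and mRNA decay, Ddx3x alone had an optimal peak, where 14.1% of all genes had one. Ddx3x is an X-linked gene for a helicase that helps ribosomes scan structured 5′ leaders. Its peak at chrX:13280546-13280905 had a signal of 100.5 (rank 787), with 64.6 in replicate 1 (rank 575) and 34.6 in replicate 2 (rank 1346). The summit lay 230 bp inside the RefSeq gene and 296 bp before the start that the promoter table gives. Ddx3y, its partner on the Y chromosome, had no relaxed summit within 1 kb in either replicate. Chromosome Y held 0 optimal peaks and 1 relaxed peak in each replicate, and the handling of reads shared by the pair is not stated. The X and Y copies can therefore not be compared by these lists.

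Ddx19b and Dhx36 were called in replicate 2 alone. Ddx19b, whose protein releases mRNA at the nuclear pore, had 4.17 in replicate 1 (rank 212232) and 11.7 in replicate 2 (rank 8074). Dhx36, which unwinds G-quadruplex RNA, had 8.98 in replicate 1 (rank 14406) and 12.9 in replicate 2 (rank 6621). Dhx29, a factor for initiation on structured leaders, had a pooled signal of 16.9 and was called in the conservative list but in none of the 3 main ones. Ddx6, which represses translation in P-bodies, and Ddx19a had pooled signals of 13.5 and 9.83, and Dhx34 had no relaxed summit in either replicate.

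Among the 4 helicases of transcription and several steps, Dhx9 and Ddx5 were occupied in the optimal list, where the share of all genes was 14.1%. Dhx9, or RNA helicase A, links transcription factors to RNA polymerase II. Its peak at chr1:153487743-153487874 had a signal of 85.8 (rank 984), with 37.3 in replicate 1 (rank 1205) and 49.3 in replicate 2 (rank 833). The summit stayed within a few bases of 111 bp upstream in both. Ddx5, a coregulator of transcription and splicing, had the weakest of the 12 peaks. That peak at chr11:106788957-106789316 had a signal of 17.0 (rank 7276), with 7.82 in replicate 1 (rank 22529) and 12.1 in replicate 2 (rank 7586). Its replicate summits lay 71 bp upstream and 179 bp inside the gene. Ddx17, the close paralogue of Ddx5, had no relaxed summit in either replicate. Ddx1 had a pooled signal of 13.1.

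Dhx57, 1 of 4 genes without a role group, had a strong peak at chr17:80290019-80290378. The signal was 89.1 (rank 926), with 31.0 in replicate 1 (rank 1525) and 56.1 in replicate 2 (rank 677). The 5′ end of Morn2 was 4 bp from its summit, which lay 277 bp into Dhx57, so the peak cannot be given to Dhx57 by position. The other genes of this group, Ddx59, Dhx32 and Dhx40, had pooled signals of 11.0, 9.16 and 16.5 and no call. The mitochondrial helicases Ddx28 and Dhx30 had pooled signals of 10.2 and 11.0. Ddx11, a DNA helicase of sister chromatid cohesion, also had 11.0. None of these 3 was called in any of the 3 lists.

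**Figure D2:**
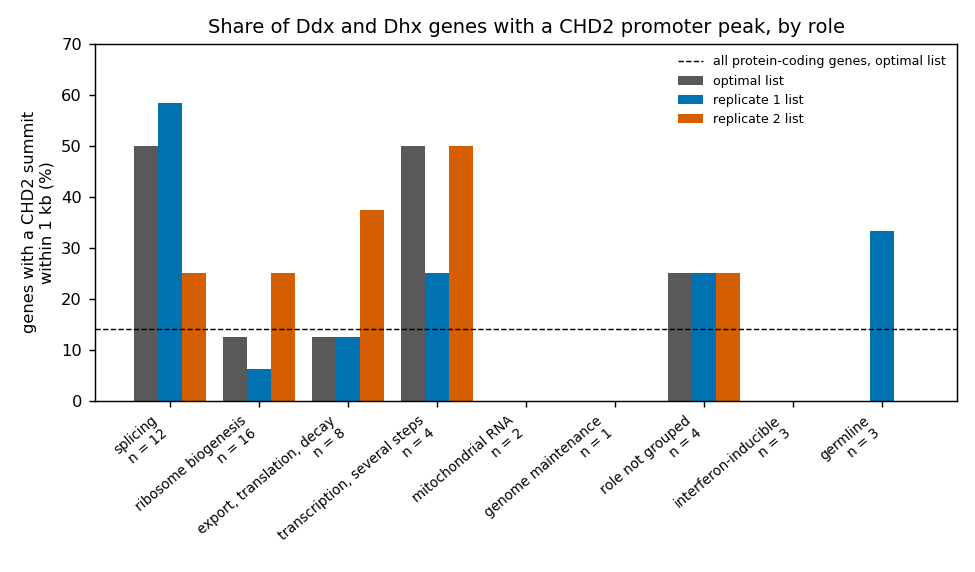
Percent of the genes of each role group with a summit within 1 kb of the 5′ end, in the optimal list and in each replicate's top list, with the number of genes under each group. The dashed horizontal line marks the share of all protein-coding genes in the optimal list (14.1%). Splicing has the most genes in the optimal list and in replicate 1 (6 and 7 of 12), but in replicate 2 it has 3 of 12.

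All members outside the germline and interferon-inducible classes were counted as broadly expressed, also those without a role group. These broadly expressed members held every optimal peak. Of these 47 genes 12 were occupied (25.5%, all genes 14.1%), with 11 in replicate 1 (all genes 14.6%) and 13 in replicate 2 (all genes 14.2%). None of the 3 germline members had an optimal peak, which by an exact interval allows a share of up to 70.8%, so a difference from the broad genes could not be shown at this number of genes. The 3 interferon-inducible members had none in the optimal list or in either replicate list. Ddx53, the other germline gene that was sought, was not among the annotated symbols used here.

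The germline genes were unlike one another. Ddx43, a helicase of male germ cells, had signals of 13.0 in replicate 1 (rank 6055) and 11.4 in replicate 2 (rank 8553). In the pooled list its signal was 25.3 (rank 5532), above that of 3 occupied broad members, Dhx8, Ddx49 and Ddx5. The conservative list held a peak at chr9:78395575-78395934, with its summit 22 bp upstream of the 5′ end, although the optimal list did not. Ddx4, the mouse vasa homologue and a standard marker of germ cells, had 6.99 in replicate 1 (rank 34037) and 3.99 in replicate 2 (rank 131666). Ddx25, a helicase of spermatids, had 4.28 in replicate 1 (rank 197181) and 5.69 in replicate 2 (rank 47935). Ddx4 and Ddx25 were thus weak in both replicates, while Ddx43 was inside the top list of replicate 1 and just outside that of replicate 2.

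The interferon-inducible genes showed little signal. Ddx58, which encodes the viral RNA sensor RIG-I, had no summit in replicate 1 and one of 6.39 in replicate 2 (rank 34282). Ddx60 had 5.97 in replicate 1 (rank 63221) and 4.69 in replicate 2 (rank 84446). Dhx58, which encodes the RIG-I relative LGP2, had none in either replicate and a pooled signal of 6.17. Relaxed lists hold background as well as peaks, so such values cannot be read as peaks. The absence of a summit was not particular to these genes, since 5 members had none in either replicate, among them the broad genes Ddx17, Ddx56 and Dhx34. For Ddx56 this holds for the outer 5′ end only.

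**Figure D3:**
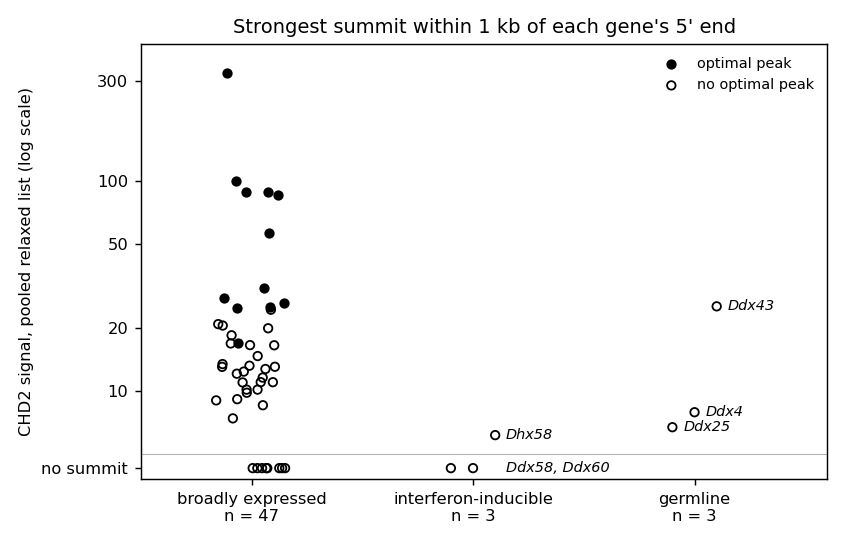
Strongest CHD2 signal of the pooled relaxed list (log scale) within 1 kb of the 5′ end of each of the 53 members, by class, with filled points for members with an optimal peak and a lowest row for members without a summit. The 47 broad genes run from 7.42 to 328 and also hold 8 genes without a summit, while Ddx43 at 25.3 lies among the weaker filled points.

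The optimal, conservative and pooled lists differed at the weaker members. Signals of the pooled list equalled the optimal ones at all 12 occupied genes (difference under 0.001), so the lists differed in which peaks they kept. The conservative list held 13 members, against 13.6% of all genes. It lacked Ddx23, Dhx8 and Ddx5 and held Ddx43, Ddx54, Dhx29 and Dhx36 in addition. A pooled top list held 15 members, against 15% of all genes. The 5 genes Ddx20, Ddx3x, Ddx39a, Dhx9 and Dhx33, were occupied in all 13 alternative settings that were tried.

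The median signal of the occupied members lay close to that of all occupied genes in the optimal list, but no single member did. Their median signal was 43.9, against 45.0 for all 3035 occupied genes, and the median percentile within the list was 66.5, against 72.5. Both medians are midpoints between Dhx33, with a signal of 56.9, and Dhx38, with 30.9, and no member lay between these. The replicates placed the members differently. Their median percentile was 75.5 in replicate 1 (all occupied genes 70.9) and 31.2 in replicate 2 (all occupied genes 70.1). Among the 1000 strongest peaks there were 5 members in the optimal list (3.76% of all genes), 2 in replicate 1 (3.79% of all genes) and 4 in replicate 2 (3.7% of all genes). By symbol, 7 of 37 Ddx genes and 5 of 16 Dhx genes had an optimal peak, against 14.1% of all genes. Replicate 1 had 6 and 6, against 14.6%, and replicate 2 had 9 and 4, against 14.2%.

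Summits fell on either side of the 5′ end. In 6 of the 12 occupied genes the summit lay inside the gene, against 34.8% of all occupied genes, with 5 of 12 in replicate 1 (35.2%) and 8 of 13 in replicate 2 (36.2%). The median distance to the 5′ end was 88.5 bp, against 104 bp for all occupied genes. In the full relaxed lists, replicate 1 placed its summit within 25 bp of the optimal one at 10 of the 12 genes, and replicate 2 did so at 8. The optimal list was drawn from these same replicates, so the positions are not independent. The share of all occupied genes was not counted for this. The farthest summits were 119 bp away in replicate 1 and 221 bp away in replicate 2, at Ddx5 and Ddx23. No member lay near the edge of the window, since the outermost summits inside were those of Ddx39b at 576 bp and Ddx20 at 313 bp. The nearest outside belonged to Ddx19b, 2077 bp upstream with a signal of 193, and to Ddx4, 8072 bp upstream.

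**Figure D4:**
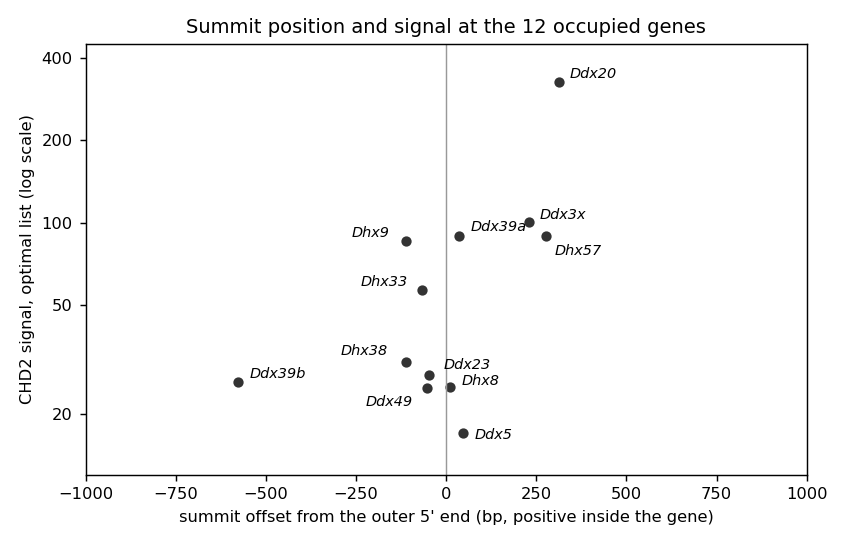
Optimal signal (log scale) of the 12 occupied genes against the distance of the summit from the outer 5′ end in bp, positive inside the gene. Summits lie on both sides and within 313 bp of the 5′ end, except that of Ddx39b at 576 bp upstream, and the strongest peak, Ddx20, lies inside the gene.

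Peaks in gene bodies, over 1 kb from the 5′ end, were found in 2 of 53 members, against 9.13% of all genes. The number was 6 in the top list of replicate 1 and 2 in that of replicate 2. The share of all genes was not counted for these 2 lists, so their numbers have no background beside them. The median gene length was 22833 bp for the members and 17310.5 bp for all genes. Dhx32 held 3 such peaks in 1 cluster, with signals of 28.7 at chr7:133759312-133759671, 26.4 at chr7:133760249-133760608 and 20.5 at chr7:133759514-133759873. Their summits lay 777, 160 and 575 bp from an internal start that the promoter table lists for Dhx32, and Dhx32 counted as occupied when such starts were allowed. The Dhx32 peaks of 28.7 and 20.5 overlapped and met the same replicate peaks, of 8.61 in replicate 1 (rank 16287) and 21.4 in replicate 2 (rank 2682). The peak of 26.4 had 11.6 (rank 7512) and 16.4 (rank 4207). Ddx19b held 1 peak at chr8:111029443-111029802 with a signal of 20.4. Its summit was 2128 bp into the gene, with the 5′ end of Aars 1845 bp away. Its signals were 8.82 in replicate 1 (rank 15179) and 9.73 in replicate 2 (rank 11993), outside both top lists.

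Shared promoters bear on which gene a peak belongs to. Divergent pairs were counted when the 5′ ends lay at most 1 kb apart or overlapped by up to 100 bp. The 5′ end of 9 of the 53 members (17.0%) was in such a pair with another protein-coding gene, beside 8.04% of all genes. Of the 12 occupied members 2 were in such pairs, beside 23.0% of all occupied genes, and this number is too small to show a difference. These were Dhx38, 31 bp from Txnl4b, and Ddx49, 296 bp from Cope. Dhx57 was not counted in a pair, although the 5′ end of Morn2 lay inside it, 4 bp from the summit. At 2 of the 12, Dhx38 and Dhx57, the summit was nearer to the other gene, beside 14.1% of all occupied genes. That left 10 occupied members with a summit nearest to their own 5′ end. Among those without a peak, Ddx25 faced Pus3 at 90 bp and Ddx54 faced Rita1 at 493 bp.

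The promoters of the members were rich in CpG whether or not they were occupied. The median ratio of observed to expected CpG was 0.907 over 47 members, 0.932 over the 9 occupied ones and 0.900 over the other 38. Over 17492 protein-coding genes it was 0.577, and 0.812 over the 2571 occupied ones. The 3 germline promoters ranged from 0.973 to 0.978, while the interferon-inducible genes with an entry had 0.390 and 0.714. Ddx4 and Ddx25 thus had CpG-rich promoters without an optimal peak.

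Exact matches to 10 short motifs were sought on both strands of these 300 bp windows, and matches of different motifs could overlap. The summits of the occupied genes Ddx20, Ddx3x, Dhx57 and Ddx39b lay outside their windows. For these genes the CpG ratio and the matches do not describe the sequence at the summit. The CCAAT box (ATTGG) was in 2 of 9 occupied and 21 of 38 other members, beside 37.4% of all 32851 promoters in the table, 39.2% of the coding genes and 56.6% of the occupied coding genes. The GC box (GGGCGG) was in 4 and 26, beside 35.7%, 46.3% and 64.6% in the same order. The ETS motif (CCGGAAG) was in 4 and 14, beside 8.86%, 11.9% and 22.4%. TCTCGCGA, found in 0.995% of all promoters, 1.53% of the coding genes and 8.56% of the occupied ones, was in no member, and ACTACAATT (ZNF143) was in none either, beside 0.393%, 0.543% and 1.48%. In the printed sequences, Dhx9 had an ETS match and 2 GC boxes, and Ddx20 had 1 GC box. Ddx43 and Ddx4 each had 2 CCAAT boxes and 2 GC boxes, and Ddx4 also had an E-box (CACGTG), which was in 7.15% of all promoters and 7.91% of the coding genes. A match is a description of letters and not of a bound site.

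Each of the other motifs was in at most 5 of the 47 members. GCATGCGC (NRF1), TGACGTCA (CRE) and CACGTG were each in 1 occupied and 4 other members, beside 2.71%, 1.79% and 7.15% of all promoters and 3.61%, 2.33% and 7.91% of the coding genes. AAGATGGC (YY1) was in 1 member without a peak, beside 2.75% and 3.21%. The TATA box motif, searched as TATAAA, was in 2 members without a peak, beside 13.6% and 13.3%.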

How the data were processed

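Only peak lists were used, from 2 biological replicates of 1 group. Per the file headers and listings, the authors derived the optimal and conservative lists by the irreproducible discovery rate procedure, which keeps peaks whose rank recurs, from both relaxed lists, the pooled list and 1 further undescribed input. Peak caller, aligner and control were not given in the sources used here, and each can shift signals and counts. The normalization of the deposited signal per peak is not stated, so it was ranked within 1 list. The deposited −log10 q-value and the deposited score entered no result. Summits came from the deposited summit offset.

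Genes and 5′ ends came from RefSeq GRCm38.p6. The strand came from the RefSeq promoter table by gene ID for 17492 genes and from GENCODE M1 by symbol for 3988, so 21480 of 21900 genes were placed. Where both gave a strand, 39 of 14610 disagreed, none of them a member. Internal starts were missed. The list on mm9 was set against GENCODE M1 without moving coordinates.

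Genes are not replicates, so no test was run over them, and with 1 group none over samples. Members and lists were chosen with earlier results of these data known. Values in full were given for the 12 strongest occupied members, all germline and interferon-inducible members, those in only some lists, those with gene-body peaks and the 2 nearest to the window edge on each side. Counting was tested on simulated peaks. Python 3.11.15, pandas 2.3.3, numpy 2.4.6, scipy 1.17.1 and matplotlib 3.10.9 were used. The amino acid motif of the members was not analysed here.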

Additional observations from a re-analysis of the deposited data

How the results depend on the processing

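The number of occupied members stayed between 10 and 15 in all alternatives except 3. The stronger 50% of the optimal peaks gave 7 members, all 7 of them broad, against 10.2% of all genes. The mm9 list with the most 5′ start also gave 7, all broad, and the mm9 list with any start gave 8. No share of all genes was counted for the mm9 list, windows other than 1 kb, or any peak base within 1 kb. It was not counted for the alternatives chosen after seeing the data either, so these counts have no background beside them. At 4613 peaks the mm9 list was much shorter than the optimal list, so its length cannot be told apart from its build and annotation. With 1 replicate left out, the median percentile ranged from 31.2 to 75.5, the germline count from 0 to 1 and the members with a gene-body peak from 2 to 6. The value of 31.2 came without replicate 1, and the values of 1 and 6 came without replicate 2. The germline count was also 1 in the pooled and the conservative list, each time Ddx43. Members with a gene-body peak numbered 0 among the stronger 50% of peaks, 1 with a window of 2.5 kb and 1 with either start on mm9. Summits inside the gene numbered 3 with either start on mm9. The median percentile was 42.8 in the pooled and 49.1 in the conservative list. Counting any peak base within 1 kb gave no value for gene bodies. The cause was not tested for any of these, apart from the stronger 50% and the wider window, which by construction leave fewer gene-body peaks. The strand source, other RefSeq starts and shared promoters were chosen as alternatives after seeing the data, and they gave 12, 13 and 10 members. No paired analysis was possible because there was 1 group.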

Other observations

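RNA helicases outside the Ddx and Dhx symbols were read in the same way, from a list of 17 genes. Of these 5 had an optimal peak (29.4%, all genes 14.1%), and the same 5 were in both replicate lists (all genes 10.5%). Eif4a3, the anchor of the exon junction complex, had the strongest, with a signal of 370 (rank 26), 203 in replicate 1 and 166 in replicate 2. It exceeded Ddx20, the strongest of the genes with a Ddx or Dhx symbol. Snrnp200, the U5 helicase that unwinds U4 from U6, had 140 (rank 468), with a summit 1 bp from the 5′ end of 1810024B03Rik. The translation initiation helicase Eif4a1 had 124 (rank 570), and Skiv2l, a helicase of the cytoplasmic exosome, had 25.7 (rank 5056) with its summit 110 bp from the 5′ end of Nelfe.

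The remaining gene was D1Pas1, a testis-expressed retrocopy of the Ddx3 family. Its peak at chr1:186967267-186967503 had a signal of 132 (rank 517), with 65.8 in replicate 1 (rank 559) and 67.5 in replicate 2 (rank 494), and its summit lay 22 bp upstream. This exceeded the optimal signal of Ddx3x, 100.5. The handling of reads that map to several copies is not stated, and their part in this peak was not tested. The other germline genes, Tdrd9, Mov10l1 and Ythdc2, and the interferon-inducible Ifih1 had no optimal peak.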
